A study of Mus musculus with 8 samples.

Results

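The matrix metalloproteases (MMPs), the ADAMTS proteases and their tissue inhibitors were examined in mouse mammary tumours with and without an FGFR1 knockout. All 41 genes set out for these families had a probe, out of 21368 named genes on the array: 18 MMP genes, 18 ADAMTS genes, and 5 inhibitor genes (Timp1 to Timp4 and Reck). They were found by matching each probe's RefSeq accession to an NCBI gene table, which gave 54 probes, and 34 of the 41 genes had a probe bright enough to be tested, against 16761 genes in all. The members were named by family and not by any measured value, although earlier results of these data were known.

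Per the labels, the FGFR1 KO group is 4 tumours of K19-tva mice whose 2 Fgfr1 copies were floxed, the WT group is 4 tumours of K19-tva control mice, and every sample has the FVB strain background. The floxed allele arose on ICR and was backcrossed, while the line carrying tva, an avian virus receptor driven by the keratin 19 promoter, is common to both groups. The sources used here give neither the Cre source, the oncogene and the age of the mice nor whether each tumour came from its own mouse, so p-values reflect only how far these 8 samples scatter. Each sample was hybridised to 1 2-colour Agilent array, and a value here is the log2 ratio of red over green, where 1 unit is a 2-fold ratio. Red was taken as the tumour and green as a human reference RNA, as the labelling protocol states, although the label field names only cy3. All FGFR1 KO arrays sat in slide row 1 and all WT arrays in slide row 2, so genotype and slide row cannot be told apart.

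MMPs are zinc enzymes that cut collagens, gelatin, proteoglycans and other proteins outside the cell, and most are made as inactive precursors. ADAMTS proteases share the catalytic fold but carry thrombospondin repeats, and act on proteoglycans such as aggrecan and versican or on procollagen ends. TIMPs bind the active site of these enzymes, and Reck is a membrane-anchored inhibitor. In mammary tumours, much of this expression is known to come from fibroblasts and immune cells, with some members, such as Mmp7 and Mmp15, made by epithelium.

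Between 68.9% and 83.9% of spots on FGFR1 KO arrays and between 43.9% and 69.2% on WT arrays were called well above background in red, so a probe could pass the brightness filter through the FGFR1 KO arrays alone. A rectangle of the WT arrays, which holds the spots of 5662 of the 16761 tested genes, was bright at negative-control spots, whose 95th percentile there was 7.88 to 15.9 red intensity units on FGFR1 KO arrays and 217.5 to 274.5 on WT arrays. Of the 34 tested members, 14 were represented by a spot in it: Mmp2, Mmp3, Mmp7, Mmp14, Mmp15, Mmp28, Adamts1, Adamts2, Adamts8, Adamts10, Adamts15, Adamts16, Timp1 and Timp3. The probe representing the targeted gene, Fgfr1, read 0.19 to 0.45 in FGFR1 KO and 0.23 to 0.38 in WT tumours. Where that probe lies relative to the floxed part was not analysed here, so it does not check the labels. The luminal markers of a mammary tumour (Krt8, Krt18, Krt19, Epcam, Cdh1 and Elf3) had a median per array of 1.44 to 2.32 in FGFR1 KO and of 1.28 to 2.55 in 3 WT tumours, whereas WT 2 read -1.94. WT 2 also stood apart by its skeletal muscle markers, at a median of 8.97 against -0.33 to 0.42 in FGFR1 KO and 0.05 to 2.52 in the other WT tumours.

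No member passed the test in either direction. With limma's moderated test and Benjamini-Hochberg adjustment over 39795 probes, 4 probes of the whole array (0.0101%) reached an adjusted p under 0.05, and 0 of the 43 tested member probes did. The lowest adjusted p among members was 0.395, for Adamts1. At an unadjusted p under 0.05, 3376 probes passed over the whole array. By gene, 5 of 34 members passed at that level and were lower in FGFR1 KO (Mmp2, Mmp3, Mmp25, Adamts1 and Adamts2), against 4.78% of all genes, and 1 was higher (Mmp7), against 3.1%. Inside the bright rectangle these lower calls were 4 of 14 members and 577 of 5662 genes, and outside it 1 of 20 members and 224 of 11099 genes.

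Inhibitors and MMP genes had medians below 0 and ADAMTS genes one above it. Of the 34 tested members, 21 (61.8%) were below 0, against 50.4% of all genes, with a median difference of -0.16 on the log2 scale against -0.0023 for all genes. With red signal alone, where the median of all genes was 0.10, the members' median was 0.031 and 16 of 34 (47.1%) were below 0, against 39.4% of all genes. Inhibitors were below 0 in 5 of 5 cases with a median of -0.41, although Timp1 and Reck were above 0 with red signal alone. MMP genes were below 0 in 10 of 15 cases with a median of -0.25, while ADAMTS genes were below 0 in 6 of 14 cases with a median of 0.12. That ADAMTS median depends on the probe chosen. Adamts8 and Adamts12 count in it as above 0, while their other tested probes differed by -0.35 and -1.29. Adamts2, Adamts14 and Adamts17 kept their sign with the other probe. Mmp19 and Adamts18 were well above background on 0 WT arrays, and over the other 32 members 20 were below 0 with a median of -0.21, with medians of -0.36 over 14 MMP genes and 0.098 over 13 ADAMTS genes. In the bright rectangle, 9 of 14 members (64.3%) and 63.2% of all genes were below 0, with medians of -0.24 and -0.10. Outside it, 12 of 20 members (60%) and 43.8% of all genes were below 0, with medians of -0.09 and 0.04. These counts and medians are descriptions of 8 arrays and were not tested.

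**Figure D1:**
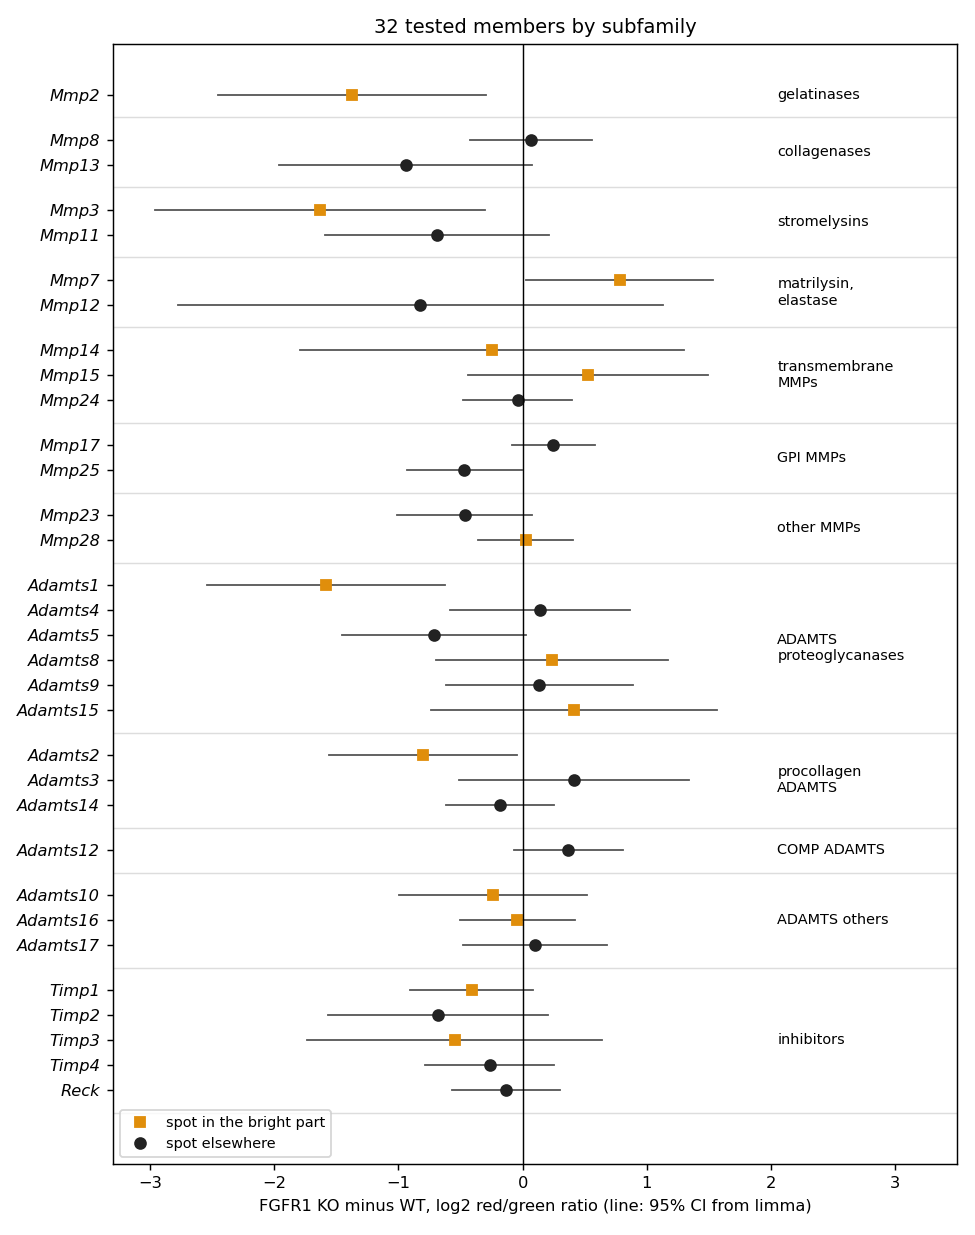
Difference of FGFR1 KO minus WT in the log2 red over green ratio for 32 tested members, grouped by subfamily, with the 95% confidence interval from limma as a line and the 14 members in the bright rectangle as orange squares. Mmp19 and Adamts18, dim on all WT arrays, are not drawn. Adamts1 at -1.58, Mmp3 at -1.63 and Mmp2 at -1.37 lie farthest to the left, Mmp7 at 0.78 lies farthest to the right, and the 5 inhibitors lie left of 0, where Timp1 and Reck do not with red signal alone.

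Mmp2, the gelatinase that digests denatured collagen and basement-membrane collagen, was the only gelatinase bright enough to test. Its ratio was -1.08, -1.77, -0.70 and -2.70 in FGFR1 KO tumours 1 to 4, against 0.49, -0.79, 0.33 and -0.80 in WT tumours 1 to 4. FGFR1 KO 4 was the lowest array, and the groups overlapped where FGFR1 KO 3 lay just above WT 2 and WT 4. The difference was -1.37 ± 0.48 (SE), with an adjusted p of 0.489 by limma and an exact permutation p of 0.0857 (two-sided). The red channel alone differed by -1.12 and the green reference channel by 0.25 on the log2 scale. The Mmp2 spot lies in the bright rectangle, where it read 38.5 to 333 red units on FGFR1 KO arrays and 166 to 615 on WT arrays. The 9 negative controls within 20 rows and columns of it had medians of 0 to 10 on FGFR1 KO arrays and 1 to 22 on WT arrays, with a highest single value of 104 on a WT array.

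Mmp9, the second gelatinase and a product chiefly of neutrophils and macrophages, was well above background on 0 of 8 arrays and was not tested. Its 10 replicate spots averaged -0.83, -0.52, -0.71 and -1.001 in FGFR1 KO 1 to 4, against -0.43, -0.13, -0.15 and -0.83 in WT 1 to 4. These spots compare 2 places on the array for 1 probe. On FGFR1 KO 1 to 4, the 4 Mmp9 spots in the bright rectangle averaged -0.82, -0.50, -0.73 and -0.89, and the 6 elsewhere -0.84, -0.53, -0.69 and -1.07. On WT 1 to 4, the 4 spots in it averaged -0.14, -0.13, 0.14 and -0.77, and the 6 elsewhere -0.55, -0.14, -0.24 and -0.87. The places differed most on WT 1 and WT 3, where the spots in the rectangle were higher.

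Among collagenases, which cut intact fibrillar collagen, Mmp13 is the main interstitial collagenase of the mouse. It read -0.996, -0.12, 0.26 and -0.55 in FGFR1 KO tumours, against 0.03, 0.28, 1.94 and 0.10 in WT tumours. WT 3 was far above every other array, and the groups overlapped through FGFR1 KO 3. The difference of -0.94 ± 0.45 (SE) did not pass limma's test (adjusted p = 0.613), and it was -0.49 without WT 3. Mmp8, the neutrophil collagenase, differed by 0.07 ± 0.22 (SE), with FGFR1 KO 4 at 0.70 and WT 3 at 0.73 the highest arrays of their groups.

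Of the stromelysins, Mmp3 is a stromal enzyme of broad specificity that also activates other MMP precursors. Its values were -1.06, -1.05, -0.50 and -1.87 in FGFR1 KO, against 1.76, -1.10, 1.26 and 0.11 in WT. WT 1, WT 3 and WT 4 lay above all FGFR1 KO arrays, whereas WT 2 was lower than 3 of them. The difference of -1.63 ± 0.59 (SE) was the most negative of the 34 tested members, with an adjusted p of 0.511 by limma and an exact permutation p of 0.114. Its spot is in the bright rectangle and read 79 to 314 red units on FGFR1 KO and 83 to 1469 on WT arrays, beside 4 nearby negative controls with medians of 3 to 6.5 on FGFR1 KO and 2.25 to 13 on WT arrays.

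Mmp11, or stromelysin 3, is known from fibroblasts around breast carcinomas and has a probe on each side of the rectangle's border. The probe outside read -2.20, -2.61, -2.29 and -3.47 in FGFR1 KO and -1.06, -2.59, -1.67 and -2.48 in WT, a difference of -0.69 ± 0.40 (SE, limma adjusted p = 0.664) that was -0.39 without WT 1 and -0.41 without FGFR1 KO 4. The probe inside read -1.63, -1.69, -1.87 and -2.52 in FGFR1 KO and -1.27, -1.89, -1.37 and -0.85 in WT, a difference of -0.58 ± 0.27 (SE, limma adjusted p = 0.602). Both Mmp11 probes placed FGFR1 KO 4 lowest, and the groups overlapped through WT 2 and WT 4 with the probe outside and through WT 2 with the probe inside. Mmp10, the second stromelysin, was well above background on 0 of 8 arrays.

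Mmp7, or matrilysin, is a small MMP of glandular epithelium and was the one member higher in FGFR1 KO at an unadjusted p under 0.05. It read 0.97, 0.62, 0.93 and 1.67 in FGFR1 KO tumours, against -0.35, 0.30, 1.09 and 0.02 in WT tumours. FGFR1 KO 4 was the highest array and the overlap came from WT 3. The difference was 0.78 ± 0.33 (SE), with an adjusted p of 0.578 by limma and an exact permutation p of 0.114. Red was well above background on all FGFR1 KO arrays but on only 1 WT array. The spot is in the bright rectangle, where it read 53 to 325 red units on FGFR1 KO arrays and 38 to 154.5 on WT arrays. The WT values lay below the brightest of 7 nearby negative controls, at 267, and above their medians of 4.5 to 12. Mmp12, the macrophage metalloelastase, spread widely within groups: -0.02, -0.54, 0.82 and 1.16 in FGFR1 KO, against 1.20, -0.69, 3.82 and 0.39 in WT. Its difference of -0.82 ± 0.86 (SE) was 0.056 without WT 3.

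**Figure D2:**
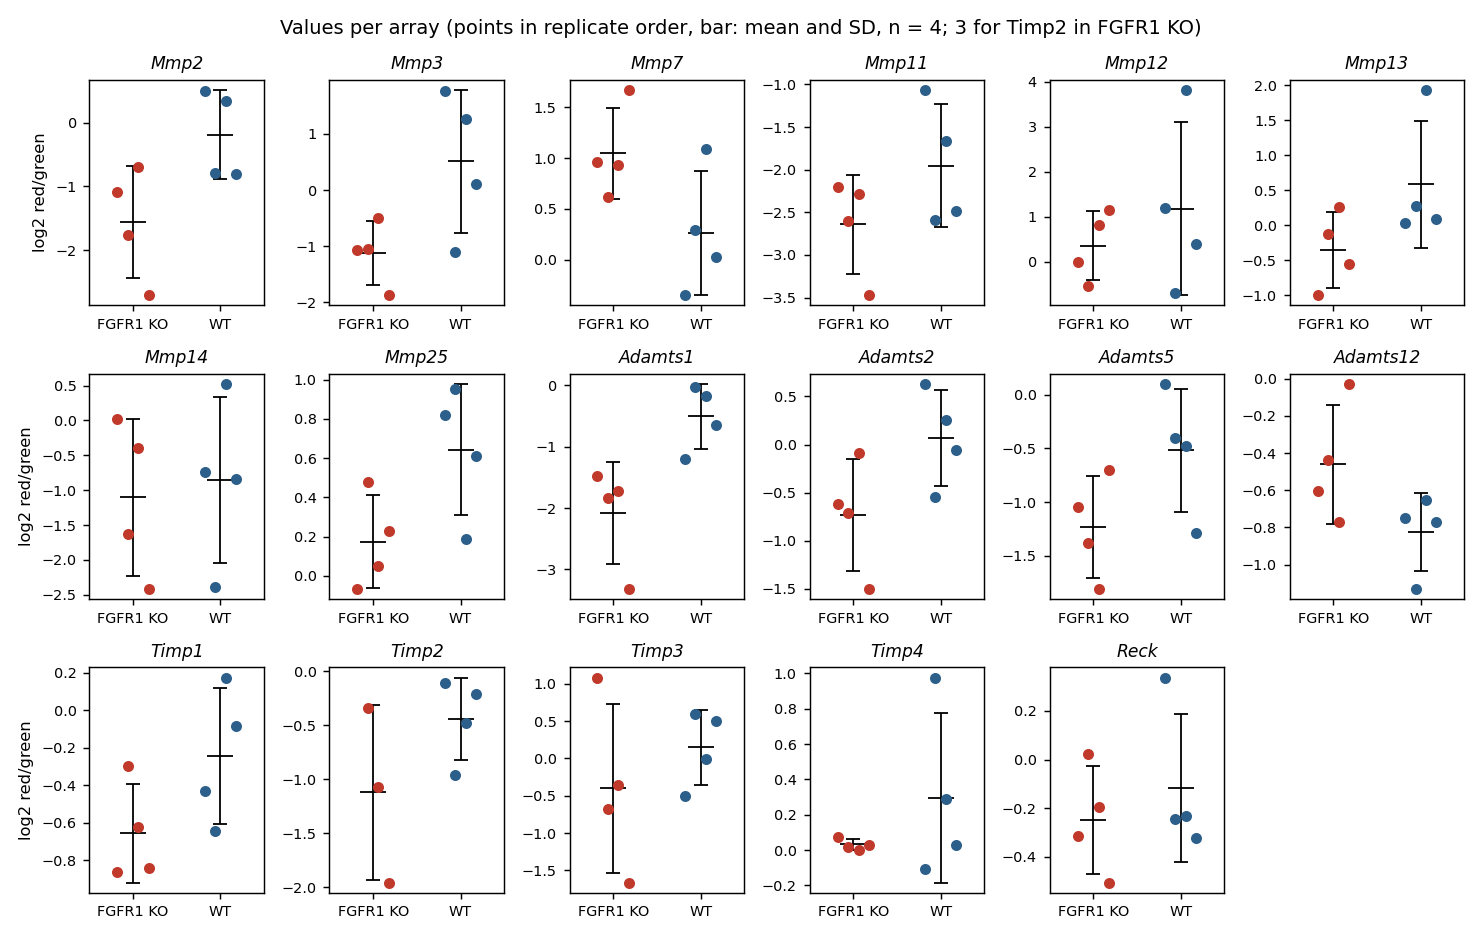
Log2 red over green ratio on each array for the 17 tested members described array by array, as red points for FGFR1 KO and blue points for WT in replicate order, with a bar for the mean and SD (n = 4 per group, 3 for Timp2 in FGFR1 KO). The groups are apart for Adamts1 and overlap for the other 16, including Mmp2, Mmp3 and Mmp7.

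The membrane-type MMPs act at the cell surface. Mmp14, the activator of the Mmp2 precursor, read 0.02, -1.63, -0.39 and -2.41 in FGFR1 KO, against -0.73, -2.38, 0.52 and -0.84 in WT. Both groups spanned nearly the same range. Its difference of -0.25 ± 0.68 (SE, limma adjusted p = 0.928) turned to 0.19 without FGFR1 KO 4 and to 0.21 without WT 3. Mmp15 read 2.65 to 3.60 in FGFR1 KO and 1.88 to 3.88 in WT, and differed by 0.53 ± 0.42 (SE). Its spot is in the bright rectangle, with a dim green signal of 36 to 71 units on FGFR1 KO and 32 to 99 on WT arrays. Its red signal was 126.5 to 619 units on WT arrays, beside 9 nearby negative controls with medians of 6.5 to 134 there. Mmp24 differed by -0.04 ± 0.19 (SE), and Mmp16 was well above background on 2 FGFR1 KO arrays and no WT array.

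Mmp25, a leukocyte MMP anchored by a lipid tail, read -0.07, 0.48, 0.05 and 0.23 in FGFR1 KO, against 0.82, 0.95, 0.19 and 0.61 in WT. The groups overlapped through WT 3. The difference was -0.47 ± 0.20 (SE, limma adjusted p = 0.582). Here the reference moved more than the tumour channel: red differed by 0.13 and green by 0.60, and with red signal alone the Mmp25 difference was 0.62. The other lipid-anchored member, Mmp17, differed by 0.25 ± 0.15 (SE). Among the remaining MMPs, Mmp23 differed by -0.47 ± 0.24 (SE) and Mmp28, an epithelial MMP, by 0.02 ± 0.17 (SE).

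Adamts1, an aggrecan- and versican-cleaving protease, was the one member whose groups did not overlap. This 1 of 34 tested members is near the share of all genes, 2.5%, with every FGFR1 KO value below every WT value. Its spot is in the bright rectangle, where 1 of 14 members and 303 of 5662 genes had this pattern. It read -1.48, -1.83, -1.72 and -3.32 in FGFR1 KO tumours, against -1.19, -0.02, -0.17 and -0.64 in WT tumours. The gap between the groups was narrow, since WT 1 lay close to FGFR1 KO 1. The means were -2.09 ± 0.83 in FGFR1 KO and -0.50 ± 0.53 in WT (SD, n = 4 each), and the difference was -1.58 ± 0.42 (SE). The exact permutation p was 0.0286 (two-sided), the smallest that 70 splits can give. Any gene with its groups apart gets this value, so it adds nothing to the lack of overlap. The limma adjusted p was 0.395. Over the alternatives tried, the difference ran from -1.81 to -1.17 and the limma adjusted p from 0.275 to 0.702. The red channel of the same normalised arrays differed by -1.40 and the green reference by 0.18, and with red processed signal alone the Adamts1 difference was -1.64.

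The red signal of the Adamts1 spot was 470.5, 78, 220 and 73 units on FGFR1 KO arrays, against 280, 504, 988 and 534 on WT arrays. The 6 negative controls nearest to it had medians of -0.5 to 10 on FGFR1 KO and 1.75 to 25 on WT arrays, and the brightest one reached 161.5 on a WT array. Adamts1 was named from this 1 probe, so no other probe could be set against it. No member had all FGFR1 KO values above all WT values, against 1.85% of all genes.

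**Figure D3:**
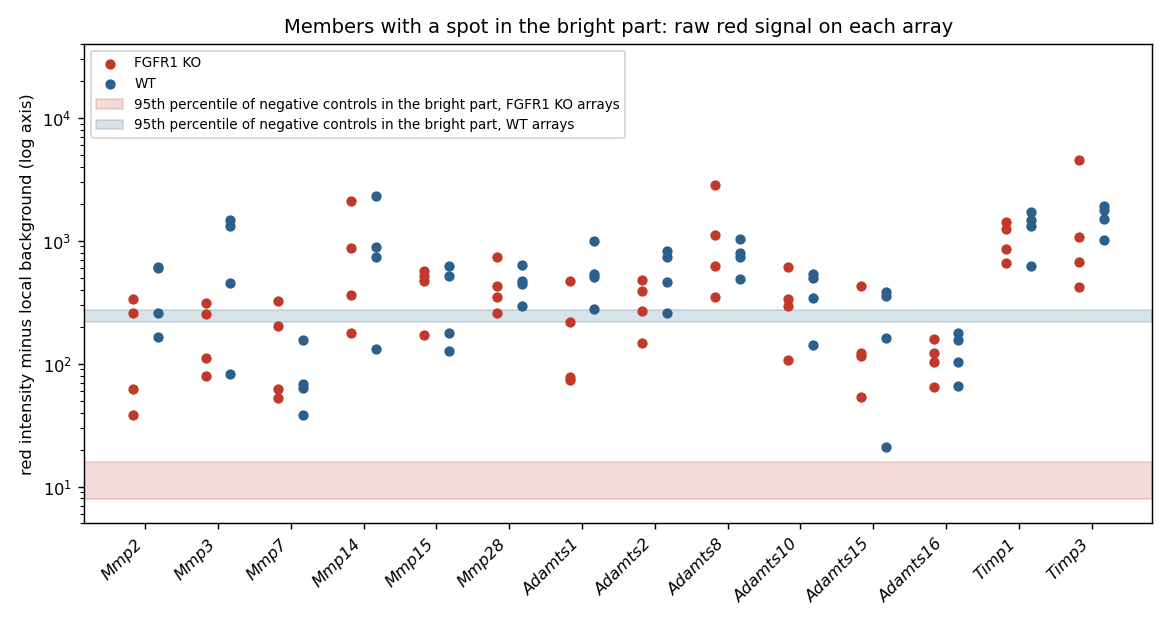
Red intensity minus local background (log axis) on each array for the 14 members with a spot in the bright rectangle, FGFR1 KO in red and WT in blue, with bands for the 95th percentile of the 96 negative-control spots there (7.88 to 15.9 units on FGFR1 KO arrays and 217.5 to 274.5 on WT arrays). All 4 Adamts1 values on WT arrays lie above the blue band, whereas all 4 Mmp7 values on WT arrays lie below it.

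The other proteoglycan-cleaving ADAMTS genes gave differences on both sides of 0. Adamts5, the main aggrecanase of mouse cartilage and, like Adamts1, on chromosome 16, read -1.04, -1.38, -1.81 and -0.70 in FGFR1 KO, against 0.10, -0.41, -0.48 and -1.29 in WT. WT 4 fell among the FGFR1 KO arrays and the difference was -0.71 ± 0.33 (SE, limma adjusted p = 0.600). Its second probe was well above background on 0 of 8 arrays and read -0.50, -0.37, -0.59 and -1.08 in FGFR1 KO, against 0.78, 0.20, -0.41 and 0.21 in WT. Adamts4, Adamts8, Adamts9 and Adamts15 differed by 0.14, 0.24, 0.13 and 0.41, each by less than its SE. The Adamts8 value is from a spot in the bright rectangle, and a second Adamts8 probe outside it differed by -0.35 ± 0.23 (SE). Single arrays led 2 of them: Adamts8 was at 1.66 on FGFR1 KO 4, and Adamts9 at 1.15 on FGFR1 KO 1. For Adamts15 the reference moved more than the tumour channel, since red differed by -0.15 and green by -0.56. Its spot is in the bright rectangle, and its green signal was 34.5 to 57 units on FGFR1 KO and 48 to 115 on WT arrays. Adamts20 was well above background on 0 of 8 arrays.

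Adamts2, which removes the amino-terminal propeptide of fibrillar procollagen, read -0.62, -0.71, -0.09 and -1.50 in FGFR1 KO, against 0.63, -0.54, 0.25 and -0.05 in WT. WT 2 was the array that brought the groups into overlap. The difference was -0.80 ± 0.33 (SE), with an adjusted p of 0.570 by limma and an exact permutation p of 0.0571. A second Adamts2 probe, also in the bright rectangle, read -0.86, -0.51, -0.17 and -0.90 in FGFR1 KO, against -0.12, -0.69, 0.25 and -0.75 in WT, and differed by -0.28 ± 0.27 (SE). The related procollagen proteases Adamts3 and Adamts14 differed by 0.41 ± 0.41 and -0.18 ± 0.19 (SE). A second Adamts14 probe, above background on all 8 arrays, differed by -0.57 ± 0.24 (SE, limma adjusted p = 0.570).

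Adamts12, a protease of cartilage oligomeric matrix protein, gave opposite answers by probe. The brighter probe, outside the rectangle, read -0.60, -0.44, -0.77 and -0.03 in FGFR1 KO and -0.75, -1.13, -0.65 and -0.77 in WT, a difference of 0.37 ± 0.19 (SE, limma adjusted p = 0.642) that was 0.22 without FGFR1 KO 4. The dimmer probe, inside it, read -0.36, -0.59, 0.13 and -0.83 in FGFR1 KO and 1.16, -0.69, 1.84 and 1.22 in WT, a difference of -1.29 ± 0.49 (SE, limma adjusted p = 0.538). The dimmer probe was well above background on 2 FGFR1 KO and 2 WT arrays. Over the 9 members with 2 tested probes, 5 had the same sign in both. Adamts7, the other member of this pair of proteases, was well above background on 1 FGFR1 KO array and no WT array.

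In the rest of the ADAMTS family, Adamts10, Adamts16 and Adamts17 differed by -0.24 ± 0.33, -0.04 ± 0.20 and 0.10 ± 0.25 (SE). Adamts18 was well above background on 4 FGFR1 KO arrays and 0 WT arrays. Adamts6 and Adamts19 were well above background on 3 and 1 FGFR1 KO arrays and on no WT array, and were not tested. For the 6 members above background on FGFR1 KO arrays and on no WT array (Mmp16, Mmp19, Adamts6, Adamts7, Adamts18 and Adamts19), the mean FGFR1 KO signal was below the WT limit of detection, so no fold is given.

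All 5 inhibitors had a difference below 0, and 0 of them passed the test. With red processed signal alone, where the median of all genes was 0.10, Timp1 (0.024) and Reck (0.48) were above 0. In the red channel of the normalised arrays, Timp1 differed by -0.31 and Reck by 0.47. Timp1, the inducible inhibitor of stroma and inflammation, read -0.86, -0.30, -0.62 and -0.84 in FGFR1 KO, against -0.43, -0.64, 0.17 and -0.08 in WT. FGFR1 KO 2 and FGFR1 KO 3 overlapped with WT 1 and WT 2, and the difference was -0.41 ± 0.22 (SE, limma adjusted p = 0.640), or -0.27 without WT 3. Its spot is in the bright rectangle among 6 negative controls with medians of -1.25 to 4.25 units on FGFR1 KO and 21.5 to 251.5 on WT arrays, beside 660 to 1415.5 units of Timp1 itself on FGFR1 KO and 628 to 1729 on WT arrays.

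Timp2, which also takes part in the activation of Mmp2 by Mmp14, read -0.34, -1.07 and -1.96 in FGFR1 KO 2 to 4, with FGFR1 KO 1 left out as an outlier spot, against -0.11, -0.96, -0.48 and -0.21 in WT. The spot left out read 10547 red units, against 2932 to 9695 on WT arrays. The difference was -0.68 ± 0.38 (SE, limma adjusted p = 0.663) without that spot, and -0.51 with the values of the deposited series matrix. The second Timp2 probe had all 4 values, -1.75, -1.91, -2.28 and -2.22 in FGFR1 KO and -1.33, -2.38, -1.44 and -2.04 in WT. It differed by -0.24 ± 0.26 (SE), and with both Timp2 probes WT 2 was the lowest WT array.

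Timp3, the inhibitor bound to the matrix and the one that blocks several ADAMTS enzymes, had the widest spread of the inhibitors: 1.08, -0.67, -0.35 and -1.66 in FGFR1 KO, against -0.50, 0.59, -0.00 and 0.51 in WT. FGFR1 KO 1 was above every WT array, FGFR1 KO 2 and FGFR1 KO 4 were below every one, and the difference of -0.55 ± 0.52 (SE) was -1.04 without FGFR1 KO 1 and -0.13 without FGFR1 KO 4. The Timp3 spot is in the bright rectangle. The 8 nearby negative controls had medians of -2 to 6.5 units on FGFR1 KO and 3 to 257.5 on WT arrays. Timp3 itself read 424 to 4538 units on FGFR1 KO and 1007 to 1902 on WT arrays. Timp4 read 0.08, 0.02, 0.00 and 0.03 in FGFR1 KO, against -0.11, 0.98, 0.29 and 0.03 in WT, a difference of -0.27 ± 0.23 (SE) that was -0.04 without WT 2, the array with the muscle markers. Reck read -0.31, 0.02, -0.20 and -0.51 in FGFR1 KO, against 0.34, -0.24, -0.23 and -0.32 in WT, with only WT 1 above the rest. Its difference of -0.13 ± 0.19 (SE) was 0.018 without WT 1, and its second probe, at 0.35, 0.09, 0.15 and 0.09 in FGFR1 KO and -0.25, -0.16, -0.13 and 0.61 in WT, differed by 0.15 ± 0.21 (SE).

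Of the MMP members, 6 lie in 1 cluster on chromosome 9, in the order Mmp13, Mmp12, Mmp3, Mmp10, Mmp8 and Mmp7, together with Mmp1a, Mmp1b, Mmp20 and Mmp27. Looking at them side by side was decided after their values were seen. Among WT arrays, Mmp12, Mmp13, Mmp7 and Mmp8 were highest on WT 3, at 3.82, 1.94, 1.09 and 0.73. Mmp3 was highest on WT 1, and Mmp1a on WT 4 at 1.29, where WT 3 read 0.13. Mmp10 and Mmp20 were above background on 0 of 8 arrays and Mmp1b on 0 WT arrays. WT 3 was the highest WT array for 32.4% of the 34 tested members and 20.5% of all genes, and this pattern was not tested. Macrophage markers also had their highest array median on WT 3, at 0.77, against -0.03 to 0.28 in FGFR1 KO and -0.10 to 0.47 in the other WT tumours. Single macrophage markers were divided among WT arrays. Csf1r, Cd68 and Fcgr1 were highest on WT 3, Mrc1 and Cd163 on WT 1, and Adgre1 on WT 2. The part of macrophages in these values was not tested.

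The promoters of this cluster are shown because its genes are known for an AP-1 element close to the start, the site of Fos and Jun factors. RefSeq windows of assembly GRCm38.p6, from 250 bases before to 50 after the start, were at hand for 27 of the 41 members. The letters TGACTCA or, on the other strand, TGAGTCA occurred in 5 of these members (30 windows in all), each of them in the cluster, and in 1709 of 32851 windows (5.202%). The letters TATAAA, searched on both strands, occurred in 7 members and in 13.62% of all windows. The 70 bases before each start follow on the plus strand, 5′ to 3′, with AP-1 and TATAAA letters in capitals.
Mmp13, chr9:7272444-7272513: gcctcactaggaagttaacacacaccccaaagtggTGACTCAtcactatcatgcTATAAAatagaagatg
Mmp12, chr9:7347304-7347373: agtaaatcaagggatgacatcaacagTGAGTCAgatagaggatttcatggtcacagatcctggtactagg
Mmp3, chr9:7445752-7445821: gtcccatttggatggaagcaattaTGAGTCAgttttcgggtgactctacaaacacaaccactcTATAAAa
Mmp10, chr9:7502272-7502341: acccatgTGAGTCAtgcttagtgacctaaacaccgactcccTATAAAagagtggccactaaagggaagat
Mmp7, chr9:7692020-7692089: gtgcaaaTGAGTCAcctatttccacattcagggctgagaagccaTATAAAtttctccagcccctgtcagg
The AP-1 letters begin 35 bases before the start in Mmp13, 44 in Mmp12, 46 in Mmp3 and 63 in both Mmp10 and Mmp7. Their differences between genotypes had both signs, with Mmp3 at -1.63, Mmp13 at -0.94, Mmp12 at -0.82 and Mmp7 at 0.78. A match of letters is a description of the window and not a binding site.

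Values were uneven among arrays within each group. Among the 33 members with all FGFR1 KO values, FGFR1 KO 4 was the lowest FGFR1 KO array for 17 (51.5%), against 27.2% of all genes. WT 2 was the lowest WT array for 15 of 34 members (44.1%), against 33.0% of all genes. The median SD of a member was 0.45 in FGFR1 KO and 0.48 in WT, against 0.26 and 0.34 for all genes.

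The markers of fibroblasts, the best known source of several members, were also lower in FGFR1 KO. All 10 markers (Pdgfra, Pdgfrb, Dcn, Lum, Dpt, Col1a1, Col1a2, Col3a1, Fap and Thy1) were below 0, with a median difference of -1.67. However, 0 of them passed the test, the lowest limma adjusted p being 0.216. Of the 10, 6 had every FGFR1 KO value below every WT value, against 2.5% of all genes. Pdgfra and Dpt are among the 6 and have spots in the bright rectangle, where 303 of 5662 genes had this pattern. The median of the 10 markers per array ran from -2.02 to -0.68 in FGFR1 KO and from -0.55 to 0.19 in WT. FGFR1 KO 4 and WT 2 had the lowest median of their groups. Mmp2, Mmp3, Adamts1 and Adamts2 were also lowest on FGFR1 KO 4, whereas Mmp25 was lowest on FGFR1 KO 1. Among WT arrays, Mmp3 and Adamts2 were lowest on WT 2, Mmp2 on WT 4, Mmp25 on WT 3 and Adamts1 on WT 1. Adamts1 was highest among WT arrays on WT 2, at -0.02. In whole tumour pieces, fewer fibroblasts and less RNA per fibroblast cannot be told apart, and the part of either in the members' values was not tested. For these markers too, genotype and slide row cannot be told apart. Adipocyte markers were below 0 in 8 of 8 cases, with medians of 0.07 to 0.43 in FGFR1 KO, against 3.64 on WT 1, 4.30 on WT 2 and 0.44 to 0.58 on the other WT arrays. Leaving out WT 1 and WT 2 kept 24 of 34 members below 0 (70.6%), against 47.0% of all genes, with a median of -0.15. Without WT 2 alone, 21 of 34 members (61.8%) were below 0 with a median of -0.12, against 47.5% of all genes. Without FGFR1 KO 4 alone, 20 of 33 (60.6%) were below 0 with a median of -0.05, against 49.5% of all genes.

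**Figure D4:**
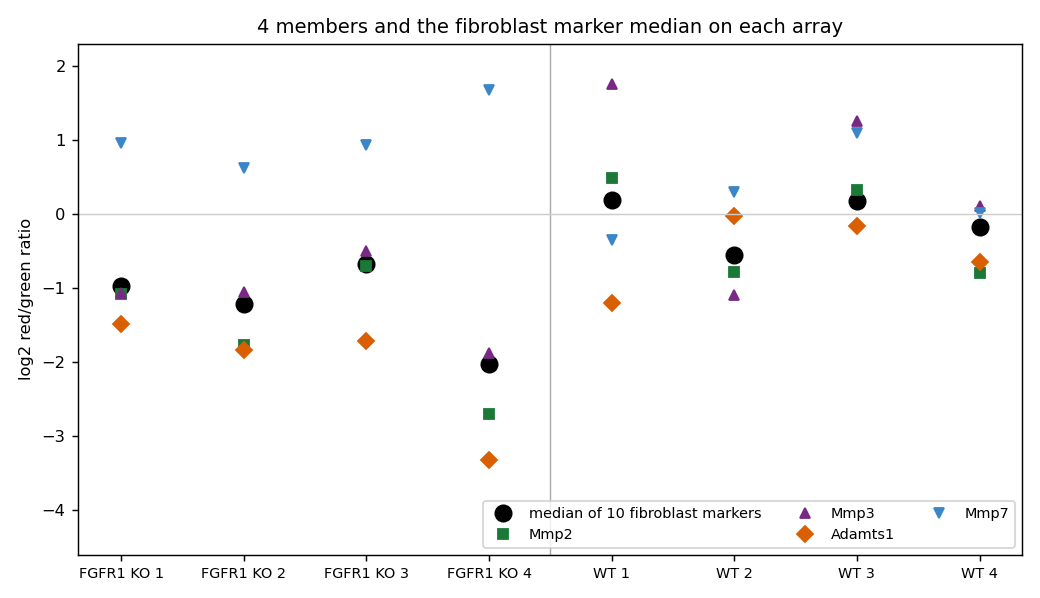
Log2 red over green ratio of Mmp2, Mmp3, Adamts1 and Mmp7 on each of the 8 arrays, with the median of the 10 fibroblast markers as black points. Mmp2, Mmp3, Adamts1 and the fibroblast median are lowest on FGFR1 KO 4, where Mmp7 is highest at 1.67. On WT 2 the fibroblast median is -0.55, Mmp3 -1.10, Mmp2 -0.79 and Mmp7 0.30. Adamts1 has its highest WT value there, at -0.02.

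Other genes that act with these families also gave 0 calls after adjustment. Of 8 tested ADAM proteases, the membrane relatives of ADAMTS enzymes, 6 were below 0 with a median of -0.20. The smallest p was that of Adam8, a protease of myeloid cells, at -1.17 ± 0.36 (SE, limma adjusted p = 0.447), then the sheddases Adam17 at -0.39 ± 0.15 and Adam10 at 0.77 ± 0.38. In the plasminogen system, which activates MMP precursors, 5 of 6 were below 0 with a median of -0.39. Its inhibitor Serpine2 was at -0.62 ± 0.22 and its activator Plat at -0.81 ± 0.36. Among regulators of metalloprotease levels, 3 of 5 were below 0, led by Lrp1, the endocytic receptor that clears MMPs and ADAMTS enzymes, at -0.71 ± 0.21, and the procollagen proteinase enhancer Pcolce at -0.79 ± 0.24. The protease inhibitor A2m was at 0.45 ± 0.21. Adam8, Adam17, Serpine2, Plat, Lrp1 and Pcolce are all represented by a spot in the bright rectangle.

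Of 12 tested substrates, 7 were below 0 with a median of -0.06. Those with the smallest p were fibronectin and fibrillar collagens outside the bright rectangle: Fn1 differed by -1.45 ± 0.42, Col1a2 by -1.65 ± 0.53 and Col3a1 by -1.68 ± 0.60 (SE, limma adjusted p of 0.433, 0.455 and 0.510). The aggrecan family genes Acan, Vcan, Ncan and Bcan, substrates of Adamts1 and its relatives, differed by 0.06, -0.03, 0.26 and 0.34. Convertases and other activators were below 0 in 3 of 5 cases, with Furin, which cuts MMP and ADAMTS precursors, at 0.31 ± 0.30, Pcsk7 at 0.26 ± 0.26 and Bsg, an inducer of MMPs, at -0.25 ± 0.26. ADAMTS-like proteins, which lack the protease domain, were below 0 in 4 of 6 cases, with Adamtsl5 at -0.20 ± 0.15, Adamtsl1 at -0.27 ± 0.24 and Papln at -0.25 ± 0.34. Of the remaining MMP and ADAMTS genes, Mmp1a and Adamts13 differed by -0.54 ± 0.33 and 0.16 ± 0.15 (SE).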

How the data were processed

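RNA of 8 tumours was measured on 2-colour arrays of Agilent design 028005, scanned spots being quantified by Feature Extraction 11.0.1.1, per the file headers. The deposited signal columns hold linear intensities, per the file headers, and the deposited ratio column is log10 of red over green. The values of the deposited series matrix match log2 red over green (correlation with the values computed here 0.993 to 0.997, column medians -0.015 to 0.015), with its normalization and centring not given in the sources used here. The median SD within groups, over log2 channel signals, was 0.165 in FGFR1 KO and 0.189 in WT for green and 0.269 and 0.367 for red, and green, which varied less, was taken as the reference, as in the labels' protocol.

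R 4.3.3 and limma 3.58.1 were used: normexp background correction (offset 50) on median signals, loess within each array, controls and outlier spots left out, and replicate spots averaged. A probe was tested if its red signal was well above background on 4 or more of 8 arrays, with 3 or more values in each group, which left 39795 of 55681 probes. Each gene is given by its probe with the highest mean red signal. FGFR1 KO and WT (4 arrays each) were compared by lmFit and eBayes, in a two-sided test adjusted by Benjamini-Hochberg over every tested probe, and single members also by an exact permutation test over 70 splits. Precision is limited by the number of arrays. The fit was tested on simulated data first.

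The members and lists were chosen with earlier results of these data known. Array-by-array values are given for members with an unadjusted p under 0.05 or groups apart, for the 5 inhibitors, and for Mmp2, Mmp3, Mmp9, Mmp11, Mmp13, Mmp14, Adamts1 and Adamts5. Those of Mmp12 and Adamts12 were added after their values were seen. Other pathway genes are the 3 with the smallest p of each list, without any dim on all WT arrays, the aggrecan family being added after their values were seen. Samples with the same replicate number did not deviate together (correlations of -0.11 to 0.11), so the main test did not pair them. Low correlations cannot show that no pairing exists. The alternatives tried were Agilent's log ratio, red alone, the series matrix, another offset, 2 other filters, the rectangle left out, the mean over probes, array weights, trend and robust eBayes, a replicate block, and arrays left out. The values of 1 gene are not reported here.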

Additional observations from a re-analysis of the deposited data

Results flagged for a closer look

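Mmp13 on WT 3 read 1.94, while the other WT arrays read 0.03 to 0.28, a gap of 0.871 of the group's range, which is above Dixon's 95% critical value for 4 samples. Reck on WT 1 read 0.34, while the other WT arrays read -0.32 to -0.23, a gap of 0.862 of the range. Chance flags about 1 in 20 groups, and 35 groups were checked.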

How the results depend on the processing

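No member was called under any of the 20 alternatives. The 4 probes called over the whole array became 0 with Agilent's log ratio, red processed signal alone, brightness on all 8 arrays, the bright rectangle left out, trend and robust eBayes, and without WT 1 and WT 2, but 139 with no brightness filter and 11 with array weights. Leaving out 1 array gave 0 to 1, and the cause was not tested. The replicate number as a replicate block also gave 0 probes and changed no member call. The members' median of -0.16 was 0.031 with red alone, which moved the median of all genes to 0.10. For the 19 members bright on all 8 arrays it was -0.41, and no value of all genes under that filter is given here. Without 1 array the members' median ran from -0.25 to -0.05 and members below 0 from 19 to 22. With the rectangle left out, 13 of 21 members were below 0 because fewer genes had a probe, and Mmp2, Mmp3, Mmp7 and Adamts1 had none. With red alone 16 of 34 members were below 0 (47.1%), against 39.4% of all genes, and with Agilent's ratio 18 (52.9%), against 39.2%. Signs turned for Mmp25 (0.000999 with Agilent's ratio and 0.62 with red alone), Timp1 (0.024 with red alone), Reck (0.48 with red alone, 0.0077 as a mean over probes, 0.030 without WT 1 and WT 2, and -0.22 to 0.018 without 1 array), Mmp14 (0.19 without FGFR1 KO 4, 0.21 without WT 3, and -0.76 to 0.21 over all arrays left out singly), Mmp12 (0.056 without WT 3, and -1.45 to 0.056 without 1 array) and Adamts12 (-0.46 as a mean over probes), and the cause was not tested. The other 11 of the 17 tested members described array by array kept their sign wherever they had a value. Members dim on WT arrays are limited by signal over background.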

Other observations

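Outside the families, Adam8, Adam17 and Lrp1 had every FGFR1 KO value below every WT value, as had Mcpt4, Cma1 and some other markers. This pattern held for 2.5% of all genes, and for 303 of 5662 genes in the bright rectangle. Adam8, Adam17 and Lrp1 are each represented by a spot in that rectangle. The mast cell protease Mcpt4, whose spot is also there, differed by -2.10 ± 0.41 (SE, limma adjusted p = 0.203), and Cma1, whose spot is elsewhere, by -1.19 ± 0.30 (SE, limma adjusted p = 0.351). The other 2 tested mast cell markers, Tpsb2 and Kit, differed by -0.12 ± 0.21 and 0.62 ± 0.74 (SE). The mast cell marker Cpa3 was well above background on 0 of 8 arrays.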
